A study of Homo sapiens with 12 samples.

Results

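The transcriptome described here is that of 22Rv1 cells that received vehicle only, read from 3 of the 12 libraries of the series. The members are the 3 libraries whose labels name vehicle. 22Rv1 is a human castration-resistant prostate cancer cell line, labelled WT for genotype, and it is grown as a single established line. Cells were kept in RPMI-1640 medium with foetal bovine serum, received the vehicle one day after seeding and were harvested 24 h later. The labels describe the replicates as biologically independent. The cells of these libraries were vehicle-treated and not untouched, and the vehicle itself is not named in the labels used here. RNA was taken with Trizol and made into stranded, poly(A)-selected libraries. The other 9 libraries received a compound and are not compared here. As all values come from 1 cell line and 1 condition, they are given as levels and ranks with the spread over the 3 libraries, and no test was made.

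Luminal cells of the prostate secrete kallikrein proteases, keep the keratins of simple epithelia and depend on lineage transcription factors such as FOXA1 and HOXB13. Prostate epithelium is also known for an unusual metabolism, in which zinc uptake holds back the oxidation of citrate so that citrate can be secreted, and this is often lost in cancer. Advanced prostate cancers can lose luminal identity and gain neuroendocrine or gastrointestinal genes, and growth can come to rest on receptor kinases, lipid synthesis or cell cycle genes.

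Levels are given as FPKM, fragments per kilobase of transcript scaled to the mapped fragments of the library, which allows genes of different length to be set side by side. A level counted as high at a mean of 100 FPKM or more, moderate from 10 to under 100, low from 1 to under 10 and trace under 1. Rank 1 is the highest mean FPKM among the 18668 genes of the table. Every gene of the table had at least 1 read in all 12 libraries, so a gene without a row received no level, and a missing row is not a measured 0. The vehicle libraries held 74.8, 62.7 and 60.2 M counted reads. Their FPKM values correlated across genes at a Spearman coefficient of 0.996 for each pair of libraries, which describes genes within 1 cell line and not independent replicates. The chi-square of the read counts per degree of freedom was 5.89 to 17.1 between pairs, so the libraries differed by more than counting error and each was counted as 1 replicate.

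Of the 18668 genes, 590 (3.16%) were high, 5443 (29.2%) moderate, 6895 (36.9%) low and 5740 (30.7%) trace, and the median was 4.09 FPKM. Of the 14499 protein-coding genes 40.1% reached 10 FPKM, against 4.07% of the 1525 long non-coding RNA genes and 6.08% of the 2008 pseudogenes. The protein-coding share, taken over genes with a row, is the background for the counts of each list. As the lists were chosen with earlier results of these data known, the counts describe levels and do not test an identity. The 10 most abundant genes of a library took 16.9 ± 0.435% of the summed FPKM, the first 100 took 37.4 ± 0.521% and the first 1000 took 65.3 ± 0.622% (mean ± SD, n = 3, as for all values written with ±). The mRNAs encoded by mitochondrial DNA, 13 in number, held 17.2 ± 0.559% of the summed FPKM and 7.41 ± 0.155% of the reads. Cytosolic ribosomal protein genes, 81 of them, held 12.5 ± 0.570% of the summed FPKM.

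The highest level was that of the mitochondrially encoded COX2, a subunit of cytochrome c oxidase and not the prostaglandin synthase of that nickname, at 12195, 11598 and 12034 FPKM. COX1, another subunit of the same complex, was at 10611, 10449.7 and 10527 FPKM. The ATP synthase subunit ATP6 came next at 8487, 8532 and 8708 FPKM. In these genes the libraries lay close together. Their order among the mitochondrial transcripts is uncertain for ATP6 and ATP8, and for ND4 and ND4L, since each pair overlaps on the mitochondrial genome. COX3, ND4, CYTB, ND2, ND1 and ND5, further subunits of the respiratory chain, were among the 20 highest genes at means of 8403, 8362, 4059.6, 3278, 2544 and 2321 FPKM, beside the mitochondrial ribosomal RNA RNR2 at 4349 FPKM. TMSB10, which binds actin monomers, was the highest gene encoded in the nucleus at 4570.0, 4014 and 4128 FPKM. It was followed by GAPDH, a glycolytic enzyme, at 4121, 3273 and 3500.2 FPKM, and replicate 1 was the highest library for both. The ribosomal protein genes RPS2, RPL41, RPLP0, RPS18 and RPS27 completed the highest 20 that are named here, at means of 2336, 1906, 1868, 1819.9 and 1661 FPKM.

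**Figure D1:**
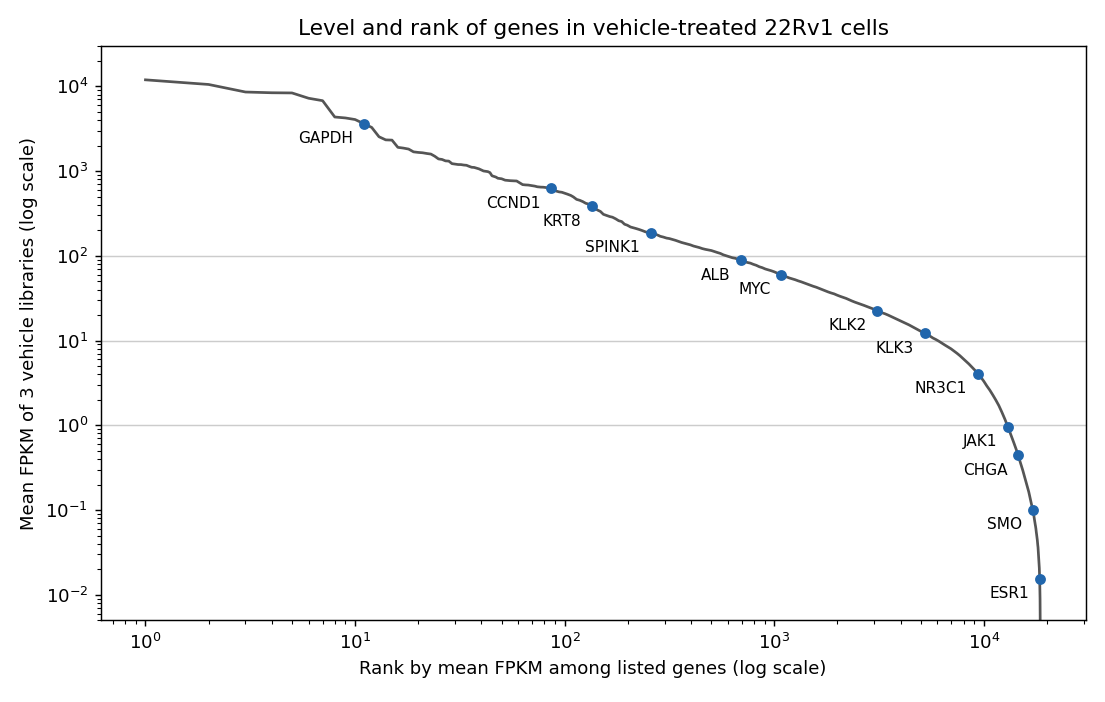
Mean FPKM of the 3 vehicle libraries (vertical axis, log scale) against rank among the 18668 listed genes (horizontal axis, log scale), with 13 genes marked as points, grey lines at the class boundaries of 1, 10 and 100 FPKM, and the 108 genes under 0.005 FPKM lying below the plot. CCND1 sits at rank 86 and KRT8 at rank 135, while KLK3 lies at rank 5239 and ESR1 at rank 18452.

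Markers of luminal prostate cells were mostly moderate or high. Of the 30 genes of this list, 5 were high, 17 moderate, 4 low and 3 trace, and TRPM8, a cold-sensing channel, had no row. Thus 22 of 30 reached 10 FPKM. This was 75.9% of those with a row, where 40.1% of the protein-coding genes and 32.3% of all listed genes did. FKBP5, a co-chaperone of steroid receptors, led the list at 209.7, 217 and 216 FPKM (rank 213). The libraries differed little for it. SPDEF, an ETS factor of luminal cells, was at 118, 109 and 104 FPKM, and STEAP1, a metalloreductase of the cell surface, was at 109, 107 and 102 FPKM. The pioneer factor FOXA1 was at 94.1, 96.3 and 90.8 FPKM and HOXB13 at 81.6, 77.2 and 73.8 FPKM, both just under the high class. FOLH1, which encodes prostate-specific membrane antigen, was at 58.2, 60 and 55.4 FPKM.

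The kallikreins did not share a level. KLK4 was at 206, 186 and 184 FPKM, rank 243. KLK2 was at 23.3, 22.1 and 22.1 FPKM, rank 3100. KLK3, which encodes prostate-specific antigen, was at 12.4, 12.4 and 11.7 FPKM, rank 5239. The 3 genes held this order in every library and their ranges did not overlap. TMPRSS2, a serine protease of the cell surface, was at 12.6, 12.4 and 12.8 FPKM, and its range overlapped that of KLK3. Other secretory products were lower still. ACP3, prostatic acid phosphatase, had a mean of 3.13 ± 0.424 FPKM and the secreted protein MSMB a mean of 0.73 ± 0.103 FPKM. The metalloreductase STEAP4 had 0.275 ± 0.0106 FPKM, and the long non-coding RNA PCA3 was lowest of the list at 0.186 ± 0.0118 FPKM, from 54, 52 and 49 reads.

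Genes of simple epithelium reached 10 FPKM in 13 of 20. This was 68.4% of those with a row, against 40.1% of all protein-coding genes. Of the 20 genes, 4 were high, 9 moderate, 4 low and 2 trace, with no row for KRT20. The keratin KRT8 was at 418, 369 and 361 FPKM (rank 135), and its partner KRT18 was at 312, 296 and 307 FPKM. KRT8 was the higher of the pair in each library. The tight junction gene CLDN7 had a mean of 159.8 ± 7.9 FPKM, KRT19 was at 172, 143 and 148 FPKM, and the adhesion molecule CDH1 was at 83, 80.7 and 82.3 FPKM. The mucin MUC1 was at trace level, with 0.55 ± 0.0792 FPKM.

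Basal and mesenchymal markers, apart from CD44, were low or trace or had no row. Of the 16 basal genes only CD44, a hyaluronan receptor, reached 10 FPKM, at 24.1, 25.7 and 24.7 FPKM, while 5 were low and 5 trace. That was 9.09% of those with a row, against 40.1% of all protein-coding genes. KRT5, KRT14, KRT17, KRT6A and TP63, which define basal cells, had no row. Of the 20 mesenchymal and transition genes none was moderate or high by its mean, 8 were low, 6 were trace and 6 had no row. VIM, the intermediate filament of mesenchymal cells, led them at 10.4, 9.03 and 8.45 FPKM, and only replicate 1 was above 10 FPKM. The matrix protein FN1 was at 8.01, 7.49 and 8.18 FPKM and the transcription factor TWIST1 at 6.87, 7.21 and 6.99 FPKM. ZEB1, a repressor of epithelial genes, was near the end of the table at 0.0211 ± 0.00385 FPKM, from 15, 10 and 9 reads. ZEB2, TWIST2, SPARC, COL1A2, S100A4 and THY1 had no row.

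The neuroendocrine list was divided. Of 20 genes 5 were moderate, 5 low and 5 trace, and 5 had no row, among them NCAM1, NEUROD1, INSM1 and FOXA2. The moderate ones were 33.3% of those with a row, under the 40.1% of all protein-coding genes at 10 FPKM or more. ENO2, a neuronal enolase that many growing cells also express, was at 98.9, 89.4 and 91.6 FPKM. SYP, a protein of synaptic vesicles, was at 30, 28.3 and 25.9 FPKM, and SRRM4, a splicing regulator of neurons, was at 26, 25.6 and 26 FPKM. The granin SCG3 was at 16.1, 16.8 and 16.2 FPKM and CHGB at 9.69, 9.71 and 9.85 FPKM. CHGA, the granin used in the clinic as a neuroendocrine marker, was at 0.47, 0.419 and 0.432 FPKM, far under both in every library. REST, a repressor of neuronal genes and a member whose presence marks the non-neuronal state, was at 9.48, 11 and 11.9 FPKM and counts among the 5 moderate genes. The stem cell factor SOX2 was lowest at 0.169 ± 0.0153 FPKM.

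Among 12 markers of blood and endothelial cells 8 had no row, PTPRC, CD3E, LYZ, HBB, PECAM1, VWF, CDH5 and KDR. CD68, a lysosomal protein of macrophages that other cells also make, had 4.43 ± 0.178 FPKM, and CD14 was trace at 0.157 FPKM. The alpha globin gene HBA1 was the exception at 41.7, 37.6 and 36.2 FPKM. Thus 25% of those with a row reached 10 FPKM, beside 40.1% of all protein-coding genes. HBA1 is nearly identical to HBA2, so reads of the pair cannot be told apart with certainty.

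**Figure D2:**
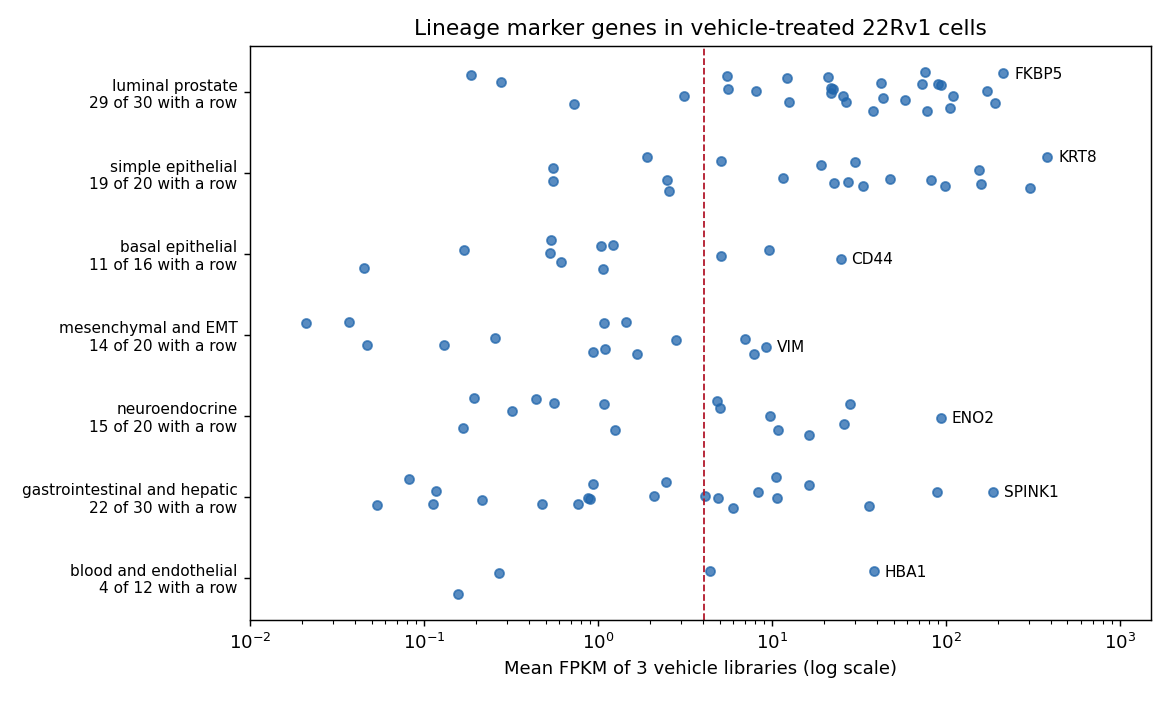
Each point is a marker gene, placed by its mean FPKM over the 3 vehicle libraries (horizontal axis, log scale) in 7 marker lists (vertical axis, with the number of members that had a row), the vertical spread within a list is arbitrary, the highest gene is named and the dashed red line is the median of all listed genes, 4.09 FPKM. Most luminal and simple epithelial points lie right of that line, and most basal and mesenchymal points lie left of it.

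Genes of gut and liver ranged from high to trace in these prostate cells. Of 30 genes 1 was high, 5 moderate, 6 low and 10 trace, and CDX1, CDX2, GATA4, TFF1, TFF3, OLFM4, APOA1 and APOB had no row. Among those with a row 27.3% reached 10 FPKM, under the 40.1% of all protein-coding genes. SPINK1, a secreted trypsin inhibitor, was at 205, 181 and 173 FPKM (rank 258). ALB, which encodes serum albumin, was at 88.3, 92 and 85.3 FPKM (rank 696). The transmembrane mucin MUC13 was at 35.5, 36.5 and 35.8 FPKM and VIL1, an actin bundler of the brush border, was at 16, 16.4 and 16.4 FPKM. The libraries were near one another for all 4 genes, with replicate 1 the highest for SPINK1 alone. UGT2B15 and UGT1A1, enzymes that conjugate steroids and bilirubin with glucuronic acid, had means of 10.8 ± 0.973 FPKM and 10.6 ± 0.817 FPKM; UGT1A1 shares exons with other UGT1A genes, so its value is uncertain. The nuclear receptor HNF4G was at 4.44, 5.24 and 5.1 FPKM. HNF4A, its liver paralog, was at 0.21, 0.236 and 0.199 FPKM, under HNF4G in each library. SLC26A3, a chloride transporter of the gut, had 2.11 ± 0.119 FPKM. MUC2, the secreted mucin of the intestine, was lowest at 0.0534 ± 0.0104 FPKM.

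Nuclear receptors, transcription factors that bind steroids, retinoids, lipids and other ligands, were moderate at most. Of the 47 in the list none was high, 7 were moderate, 19 low and 12 trace, and 9 had no row, among them PPARG, NR5A1, NR0B1 and NR0B2. Among those with a row 18.4% reached 10 FPKM, under the 40.1% of all protein-coding genes. ESRRA, an orphan receptor that drives mitochondrial genes, was the highest at 38.8, 38.9 and 36.6 FPKM (rank 1770). NR2F6, an orphan receptor, was at 32.7, 32.8 and 26.7 FPKM. NR1H2, the oxysterol receptor LXR beta, was at 21.5, 19.8 and 18.7 FPKM. RARG, a retinoic acid receptor, followed at 18.7, 17.4 and 16.4 FPKM, under NR1H2 in each library, though the ranges of the pair touched. The glucocorticoid receptor NR3C1 was low at 3.99, 4.12 and 4.12 FPKM, and so was the vitamin D receptor VDR at 5.45, 5.86 and 5.49 FPKM. The sex steroid receptors ESR1 and PGR closed the list, ESR1 at 0.0153 ± 0.00396 FPKM from 9, 5 and 9 reads and PGR at 0.017 ± 0.00805 FPKM from 27, 8 and 16 reads. ESR1 and PGR overlapped and cannot be ordered at this depth.

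Cofactors of these receptors ranged from low to high. All 15 had a row and at least 1 FPKM, and 10 reached 10 FPKM. This share of 66.7% stands beside 40.1% of all protein-coding genes. The deacetylase HDAC1 had 121 ± 6.7 FPKM, the coactivator NCOA4, which also carries ferritin to autophagy, 51 ± 1.49 FPKM, and the deacetylase HDAC3 37.3 ± 1.45 FPKM. The p160 coactivators NCOA2, NCOA3 and NCOA1 were low, with means of 8.09, 5.25 and 4.17 FPKM.

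Receptor tyrosine kinases, the cell surface receptors for growth factors, showed a narrow set of leaders. Of 52 genes 8 were moderate, 14 low, 14 trace and 16 without a row, the last including FGFR2, AXL, KDR, FLT1, ALK and ROR2. The 8 were 22.2% of those with a row, under the 40.1% of all protein-coding genes at 10 FPKM or more. DDR1, a collagen receptor, was at 76, 71.3 and 70.1 FPKM. ERBB3, which has little kinase activity of its own and signals with partners, was at 43.1, 43.1 and 42.8 FPKM. EPHA3, a receptor for ephrins, was at 29.9, 32.1 and 33.5 FPKM. These 3 kept their order in all libraries. EPHB4, another ephrin receptor, was at 24.6, 24 and 23.9 FPKM, FGFR3 at 20.9, 20.9 and 19.1 FPKM and ERBB2 at 20.8, 20.4 and 19.4 FPKM. FGFR3 and ERBB2 overlapped, so neither can be placed above the other. EGFR stood at 9.54, 9.31 and 10 FPKM, the hepatocyte growth factor receptor MET at 3.33, 3.48 and 3.52 FPKM and the insulin-like growth factor receptor IGF1R at 2.47, 2.57 and 2.61 FPKM. PDGFRA, the platelet-derived growth factor receptor, was lowest at 0.0267 ± 0.00612 FPKM.

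**Figure D3:**
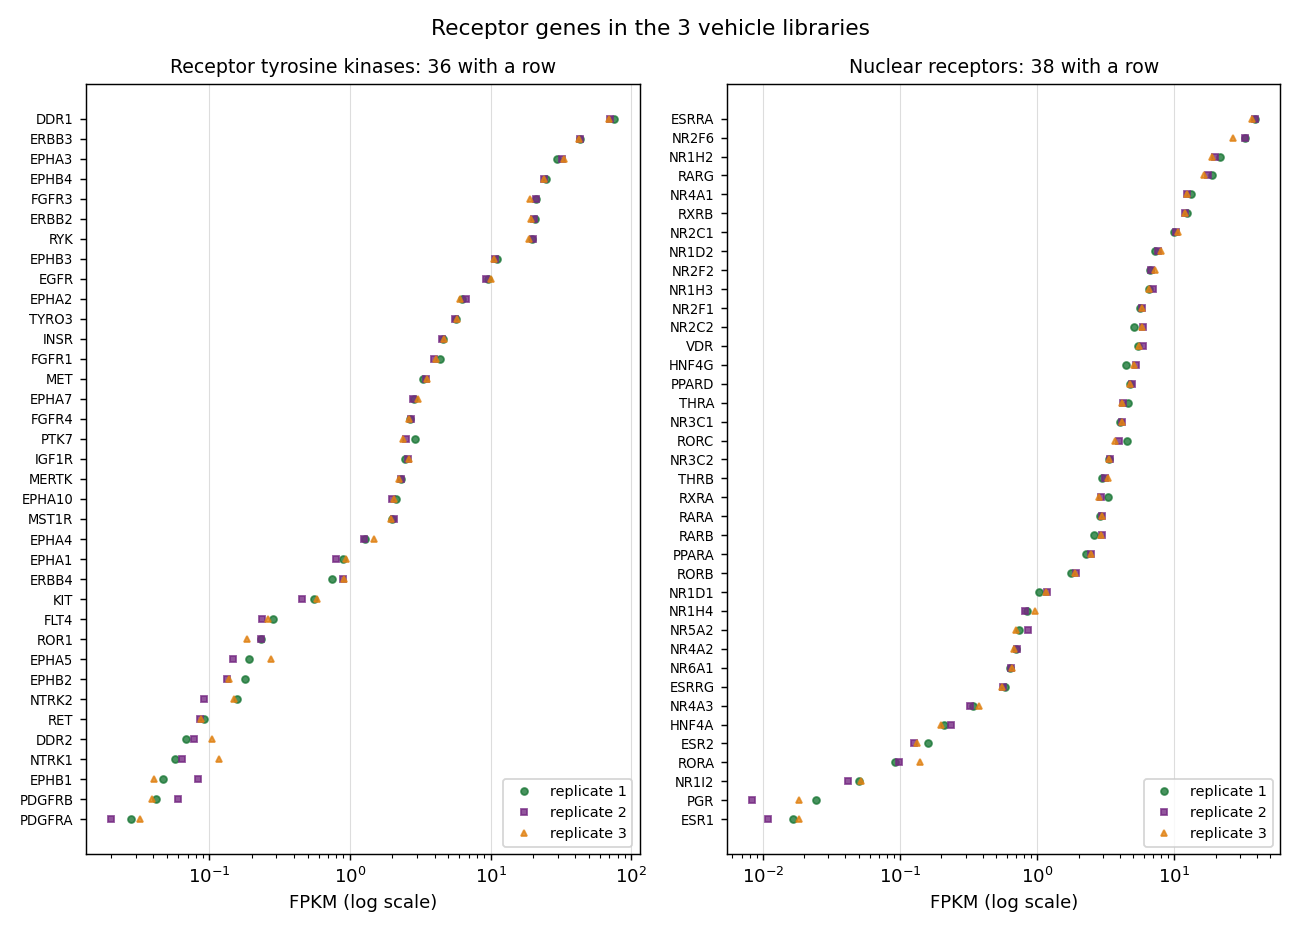
FPKM of each receptor gene with a row in the 3 vehicle libraries (horizontal axes, log scale; green circles, purple squares and orange triangles are replicates 1, 2 and 3), for 36 receptor tyrosine kinases (left) and 38 nuclear receptors (right), ordered by mean. Points of ERBB3 lie close together, and those of PGR, read from 27, 8 and 16 reads, lie apart.

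Of 32 growth factor genes only 3 were moderate. They were 12.5% of those with a row, where 40.1% of all protein-coding genes reached 10 FPKM. HGF, the ligand of MET, was at 44.2, 46.5 and 45.2 FPKM, above its receptor in each library. GDF15, a stress-responsive cytokine, was at 44.9, 43.1 and 37.5 FPKM, and VEGFA, which drives vessel growth, was at 35.8, 24.5 and 28.1 FPKM with replicate 1 the highest. Another 10 were low and 11 trace. The ERBB ligands AREG, BTC, HBEGF and TGFA had means of 1.86, 1.35, 1.16 and 1.01 FPKM, EGF was at 0.0663 FPKM, and EREG and NRG1 had no row.

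In the PI3K and mTOR pathway, which carries growth factor signals to protein synthesis, 15 of 31 genes were moderate, 11 low and 2 trace. The 15 were 53.6% of those with a row, beside 40.1% of all protein-coding genes at 10 FPKM or more. The kinase AKT1 was at 85.8, 84.3 and 81.8 FPKM. EIF4EBP1, a translation repressor that mTOR inactivates, had 68.7 ± 5.56 FPKM, and the mTOR activator RHEB 54.6 ± 3.01 FPKM. The catalytic subunit PIK3CB was at 9.99, 11 and 10.8 FPKM, with replicate 1 the lowest library. PIK3CD, PIK3CG and INPP5D had no row.

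The RAS and MAPK pathway, which relays growth factor signals to the nucleus, had 13 moderate, 17 low and 2 trace genes of 34. The share of those with a row at 10 FPKM or more, 40.6%, was near the 40.1% of all protein-coding genes. The kinase MAP2K2 led with 44.4 ± 3.3 FPKM, then came the adaptors GRB2 with 42.7 ± 0.934 FPKM and SHC1 with 36.6 ± 1.63 FPKM. HRAS, a GTPase that starts the cascade, was at 38, 34.9 and 35.3 FPKM. The ERK feedback phosphatases DUSP6 and DUSP5 had means of 3.23 and 0.441 FPKM. The ETS factors ERG and FLI1 had no row, while ETV4 and ETV1 were low at 8.68 and 4.5 FPKM.

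WNT signalling genes stabilise and use the coactivator CTNNB1, which was at 101, 105 and 104 FPKM and the only high gene among 42. Another 6 were moderate, 19 low and 12 trace. Thus 18.4% of those with a row reached 10 FPKM, under the 40.1% of all protein-coding genes. DKK1, a secreted inhibitor of the pathway, was at 17.2, 19.4 and 18.4 FPKM. AXIN2, a feedback target, was at 1.26, 1.23 and 1.44 FPKM. WNT10B was the highest WNT ligand with a mean of 7.64 ± 0.257 FPKM, and WNT2B the lowest listed gene at 0.0609 FPKM.

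All 26 NOTCH and Hedgehog genes had a row. Their median was 0.781 FPKM, beside 6.84 FPKM for protein-coding genes and 4.09 FPKM for all listed genes. Of these 3 were moderate, 10 low and 13 trace. The moderate ones were 11.5% of the list, beside 40.1% of all protein-coding genes at 10 FPKM or more. The NOTCH cofactor RBPJ had 18.8 ± 0.828 FPKM and its target HES1 17.6 ± 0.374 FPKM. The ligand JAG2 was at 8, 7.43 and 7.31 FPKM, while JAG1 was at 0.0732, 0.0641 and 0.0489 FPKM, from 36, 27 and 20 reads. In the Hedgehog branch the receptor PTCH1 was at 8.4, 8.49 and 8.9 FPKM, and its signal transducer SMO was at 0.121, 0.121 and 0.0572 FPKM, from 40, 34 and 16 reads. The effector GLI1 was at 0.574, 0.515 and 0.552 FPKM.

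Genes of the TGF-beta and BMP pathway were mostly low, with 3 high, 2 moderate, 19 low and 7 trace of 32. Only 16.1% of those with a row reached 10 FPKM, against 40.1% of all protein-coding genes. ID3, ID1 and ID2, inhibitors of basic helix-loop-helix factors that BMP signals can induce, were the only high genes of 32. ID3 was at 399, 373 and 342 FPKM (rank 136). ID1 was at 159.6, 148 and 136 FPKM and ID2 at 115, 111 and 108 FPKM. Replicate 1 was the highest and replicate 3 the lowest for all 3. The type II receptor TGFBR2 was at 0.736, 0.773 and 0.734 FPKM.

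Among 37 JAK, STAT and NF-kB genes 12 were moderate, 16 low and 7 trace. At 34.3% of those with a row, the 12 were under the 40.1% of all protein-coding genes at 10 FPKM or more. STAT6 was highest at 42.7, 40.3 and 41 FPKM, followed by the tumour necrosis factor receptor TNFRSF1A with 31.4 ± 0.789 FPKM. The kinase JAK1 was at 1.01, 0.87 and 0.984 FPKM (rank 13025), from 427, 315 and 336 reads, and its relative TYK2 was at 12.9, 13.1 and 12.9 FPKM. SOCS3, a feedback inhibitor, was at 0.0492 ± 0.0283 FPKM. IL6 and CD40 had no row.

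Glycolysis genes had the largest summed FPKM of the 4 metabolic lists, in each of the 3 libraries. Of 43 genes 10 were high, 15 moderate, 9 low and 1 trace, so 25 of 43 reached 10 FPKM. Among those with a row 71.4% reached it, against 40.1% of all protein-coding genes. After GAPDH came TPI1 with 1003 ± 71.2 FPKM, ENO1 with 625 ± 81.9 FPKM and LDHB at 622, 607 and 594 FPKM. LDHA was at 491, 369 and 403 FPKM and PKM, pyruvate kinase, at 445, 381 and 398 FPKM. LDHB, the heart-type lactate dehydrogenase, was above LDHA in each library. The glucose transporter SLC2A1 was at 26.5, 20 and 21.9 FPKM, and PDK4, which holds back pyruvate entry into the citrate cycle, was at 29.8, 29.7 and 30 FPKM. SLC2A4, the insulin-responsive transporter, was trace at 0.524 ± 0.0846 FPKM. There was no row for 8 genes, among them SLC2A2, SLC2A3, HK3, PKLR, PCK1, FBP1 and G6PC.

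All 34 genes of the citrate cycle and zinc list had a row, and 26 reached 10 FPKM, 10 of them high. The 26 were 76.5% of the list, against 40.1% of all protein-coding genes. The metallothionein MT2A, which binds zinc, was at 281, 309 and 283 FPKM. Citrate synthase CS was at 233, 238 and 233 FPKM, malate dehydrogenase MDH2 at 236, 228 and 225 FPKM and cytosolic isocitrate dehydrogenase IDH1 at 167, 173 and 171 FPKM. The libraries lay close together for each of these genes. The zinc importer SLC39A1 was at 120.1, 114 and 109 FPKM, SLC39A3 had 18.7 ± 1.57 FPKM, and SLC39A2 was trace at 0.076 ± 0.0418 FPKM.

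Lipid genes reached 10 FPKM in 20 of 36. That was 58.8% of those with a row, where 40.1% of all protein-coding genes reached it. ACADVL, which starts the oxidation of long-chain fatty acids, was at 162, 158 and 149.6 FPKM. Fatty acid synthase FASN was at 125, 126 and 127 FPKM, and the ranges of the pair did not overlap. The desaturase SCD was at 63.3, 59.3 and 61 FPKM and CPT1A, which admits fatty acids to mitochondria, at 41.1, 42.5 and 42.8 FPKM. CD36, a fatty acid uptake receptor, was lowest at 0.0587 ± 0.0128 FPKM, and FABP1 and FABP4 had no row.

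Steroid enzymes were unevenly covered. Of those with a row 43.5% reached 10 FPKM, near the 40.1% of all protein-coding genes. Of 39 genes 10 were moderate, 7 low and 6 trace, and 16 had no row, among them STAR, CYP11A1, CYP17A1, HSD3B1, HSD3B2, SRD5A2, HSD17B3 and CYP19A1, which make steroids from cholesterol or convert them. HSD17B10 was at 102, 98.4 and 97.7 FPKM and HSD17B4 at 75.4, 75.2 and 75.4 FPKM, enzymes that also act on fatty acids. AKR1C3, which reduces ketosteroids, was at 51.7, 49.7 and 47.9 FPKM. SRD5A3, named as a steroid reductase and active in protein glycosylation, was at 17.2, 17.3 and 16 FPKM, above SRD5A1 with 4.89 ± 0.306 FPKM. AKR1C1 and AKR1C2 are near-identical, so their values of 1.38 and 9.82 FPKM are uncertain.

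Cell cycle genes reached 10 FPKM in 30 of 40. This was 78.9% of those with a row, against 40.1% of all protein-coding genes. Of the 40 genes 4 were high, 26 moderate, 7 low and 1 trace, and CCND2 and CCNA1 had no row. CCND1, the cyclin that starts G1 progression, was at 611, 652 and 609 FPKM (rank 86). The replication clamp PCNA was at 176, 189 and 180.1 FPKM. Its ranges and those of CCND1 were narrow. CDK4, the partner of CCND1, was at 156, 153 and 141 FPKM, while the related CDK6 had 2.95 ± 0.258 FPKM. The mitotic ubiquitin enzyme UBE2C was at 115, 120.2 and 111 FPKM, TOP2A at 59.7, 66.1 and 64.6 FPKM and the proliferation marker MKI67 at 49.1, 54.1 and 54.2 FPKM. The inhibitors CDKN2A and CDKN1A were at 40.7, 40.3 and 30.9 FPKM and 49.5, 44.6 and 42 FPKM. RB1, the brake on G1 exit, was at 18.8, 21.2 and 21.4 FPKM. CDKN2B was the lowest listed, with 0.777 ± 0.0119 FPKM.

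All 41 tumour and chromatin genes had a row, 26 of them moderate, 14 low and 1 trace. The 26 were 63.4%, where 40.1% of all protein-coding genes reached 10 FPKM. MCL1, which blocks apoptosis, was highest at 72, 75.8 and 75.2 FPKM, and MYC was at 62.5, 58.3 and 58.1 FPKM. BCL2, of the same function as MCL1, was at 1.65, 1.49 and 1.64 FPKM. The methyltransferase EZH2 was at 36.6, 38.4 and 37.7 FPKM. MYCN was lowest at 0.333 ± 0.0681 FPKM. RNA levels do not show whether a protein is made or a gene is mutated.

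Degrader drugs act through ubiquitin ligases or through autophagy receptors, and 27 of 37 genes of these routes reached 10 FPKM. Among the genes with a row that was 75%, beside 40.1% of all protein-coding genes. GABARAP, which binds autophagy cargo receptors, was at 153, 140.0 and 129 FPKM. STUB1, a chaperone-linked ubiquitin ligase, was at 137, 137 and 125 FPKM. Replicate 3 was the lowest library for both. The cullin adaptor DDB1 was at 88.8, 85 and 84.9 FPKM and the cargo receptor SQSTM1 at 57, 52.8 and 49.4 FPKM. Of the ligase subunits most used for degraders, VHL was at 16, 17.5 and 17.5 FPKM and CRBN at 8.14, 7.34 and 8.05 FPKM. VHL was above CRBN in every library. The receptor OPTN was trace at 0.395, 0.296 and 0.291 FPKM, BIRC3 had 0.45 ± 0.0741 FPKM, and MAP1LC3C had no row.

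Paralogs were compared by their share of the summed FPKM of a family, over the members with a row. Of the 33 families, 8 had a row for only 2 members, where the leader holds 50% or more by construction, and pyruvate kinase had a row for 1. In the other 24 the leading member held at least 50% in 17 and at least 75% in 5. It was above the next member in all 3 libraries in 31 of the 33. The exceptions were the NOTCH receptors, where NOTCH3 was above NOTCH1 in 2 of 3 libraries, and pyruvate kinase, where PKM was the one gene with a row. MYC held 97.6 ± 0.0341% of its family, followed by MYCL. CCND1 held 96.9 ± 0.0983% of the D-type cyclins, followed by CCND3, and ACACA 91.8 ± 0.49% of acetyl-CoA carboxylase, followed by ACACB. Single members also led the class I PI3K catalytic subunits, where PIK3CB held 81.6 ± 0.753% and PIK3CA was next, and the retinoid X receptors, where RXRB held 80.2 ± 0.868% and RXRA was next. The D-type cyclins, acetyl-CoA carboxylase, these PI3K subunits and the retinoid X receptors are families with a row for only 2 members. Besides MYC, the leaders at 75% or more among the 24 were ENO1, CPT1A, AKR1C3 and RARG, with 86.6, 83, 81.1 and 75.2%. FGFR3 held 74.8 ± 0.933% of the FGF receptors, ahead of FGFR1. In others the share was divided: LDHB held 58.9 ± 3.13% beside LDHA, and FZD6 28.8 ± 1.26% of the frizzled receptors, ahead of FZD5. In 6 families, among them phosphofructokinase, lactate dehydrogenase, NOTCH, frizzled and PPAR, the leader was another gene when reads were not scaled to length, so their order rests on the length scaling.

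**Figure D4:**
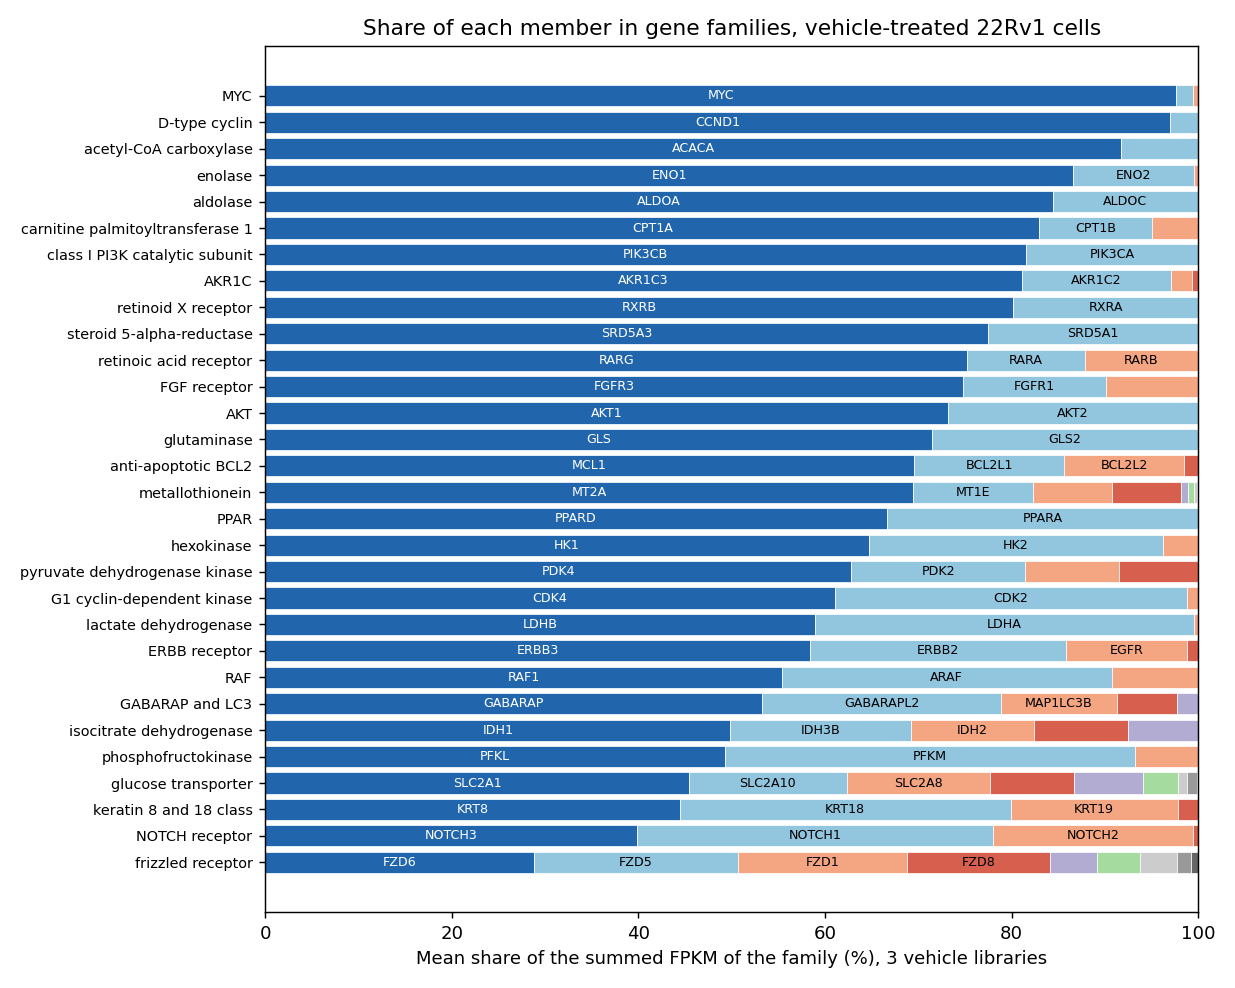
Stacked bars of the mean share of summed FPKM (horizontal axis, percent, 3 vehicle libraries) taken by each member in 30 of the 33 gene families (vertical axis), with the leading members named, ordered by the share of the leader, where pyruvate kinase, with a row for 1 member, and a further pair of families are not drawn. MYC and CCND1 take nearly the whole of their bars, and the frizzled receptors are the most divided.

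The spread between the vehicle libraries sets how far these levels can be read. It was measured as the ratio of the highest to the lowest library in CPM. These are reads scaled to library size, adjusted by trimmed mean of M values, and not to gene length. Over the 6033 genes of 10 FPKM or more the median ratio was 1.08, and 93.5% of the genes were under 1.2. A ratio of 1.5 or more was found for 17 genes (0.282%), and 4 of them reached 2. Without replicate 1 the count of 17 was 4, without replicate 2 it was 9 and without replicate 3 it was 11. Leaving out a library can only lower this count or leave it unchanged. NDUFA4L2, a mitochondrial protein induced by low oxygen, varied most among the named genes at 65.3, 27.6 and 37.8 CPM. DDIT4, a stress-induced inhibitor of mTOR, was at 93, 45.5 and 57.2 CPM. BNIP3, a mitophagy receptor, was at 145, 80.5 and 102 CPM. In all of the 10 most variable named genes replicate 1 was the highest library. The others were NRN1, TMEM160, SLC16A3, PFKFB3, ALDOC, NDRG1 and EVA1B, with ratios of 1.78, 1.71, 1.68, 1.64, 1.59, 1.57 and 1.55. SLC16A3 exports lactate, PFKFB3 and ALDOC act in glycolysis, and NDRG1, a member of the luminal list, is known to respond to low oxygen. Of the 25 glycolysis list members at 10 FPKM or more, replicate 1 was the highest library for 22 and replicate 3 for 3, against 2907, 1467 and 1659 of the 6033 genes that were highest in replicates 1, 2 and 3. Replicate 1 was also the highest for 10 of 13 simple epithelial genes, 6 of 7 nuclear receptors and 6 of 8 receptor tyrosine kinases at that level. Other lists lay nearer the 2907 of 6033 over all genes. Replicate 1 led in 12 of 22 luminal genes, 13 of 27 of degradation routes, 7 of 15 of PI3K and mTOR and 11 of 26 of citrate cycle and zinc. Of the 30 cell cycle genes at that level, 10, 14 and 6 were highest in replicates 1, 2 and 3. For the 26 tumour and chromatin genes these counts were 5, 8 and 13. The lean was thus seen in some small lists outside glycolysis genes but not in every list, and its source was not tested.

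**Figure D5:**
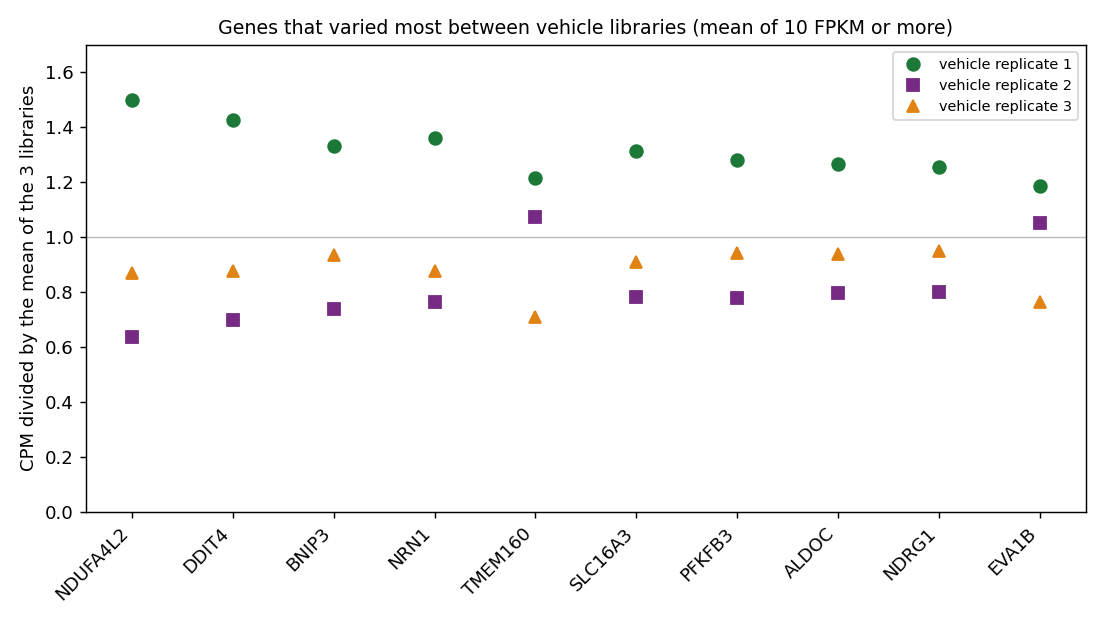
CPM of the 10 most variable named genes of 10 FPKM or more (horizontal axis), each divided by the mean of the 3 vehicle libraries (vertical axis, linear from 0), with 1 point per library. Replicate 1 lies above the others in each gene, and NDUFA4L2 has the widest range.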

How the data were processed

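RNA was sequenced from 22Rv1 cells, and the 3 vehicle libraries are described. HISAT2, StringTie and the build GRCh37 are named, without versions, per the submitters' processing notes. The deposited table gives, per the file headers, a read count for each gene and library as a whole number without normalization. It also gives FPKM and TPM, in which the authors accounted for gene length and depth. Listed genes held 99.9% of the deposited TPM. The counts of all 12 libraries served only to find the lowest count in the table. A further 30 columns of per-library values were not used.

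Mean FPKM over the 3 libraries gave level classes and ranks. Counts were scaled to CPM with edgeR 4.0.16 (TMM, factors 0.995 to 1.01) in R 4.3.3 and, as an alternative, with DESeq2 1.42.0 size factors. The other tools were Python 3.11.15, pandas 2.3.3, numpy 2.4.6, scipy 1.17.1 and matplotlib 3.10.9. Depth was 60.2 to 74.8 M reads, so counting error is small except for genes with few reads.

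The 24 lists (752 symbols, 645 with a row) and 33 families were chosen with earlier results of these data known. One older symbol, ACPP, was matched to ACP3. Named genes were the 20 highest of all, the highest and lowest of each list with members without a row, the leading family members, and the 10 with the widest spread. Small RNAs, uncharacterised loci, read-through loci and, beyond that rule, pseudogenes and open reading frame symbols were left out of the last group. Genes of other rank that are named in the lists were chosen after their values were seen. Some genes are not reported here.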

Additional observations from a re-analysis of the deposited data

How the results depend on the processing

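Leaving out each vehicle replicate in turn, or taking the median for the mean, kept the count of members at 10 FPKM or more within 1.5 times in all 24 lists. CPM in place of FPKM, which drops the length scaling, gave 10277 genes at 10 or more and 2270 at 100 or more, 464 list members at 10 or more (292 in FPKM), and top 10 and top 100 shares of 8.19% and 20.2%. It moved the count in 13 lists. Without the mitochondrially encoded genes, and with FPKM rescaled, these shares were 6.89% and 26.1%, and 3 lists moved. Class boundaries of double the size left 3488 genes at 20 FPKM or more and 228 at 200 or more, and boundaries of a smaller size put 1322 genes at 50 or more. A boundary of 20 FPKM moved 10 lists and one of 5 FPKM moved 8. The count of 17 genes with a ratio of 1.5 or more was 4 to 11 with 1 replicate left out, which cannot raise it. It was 4 without vehicle replicate 1. The same count was 11 with 1 added to each CPM and 294 among genes of at least 1 FPKM. No paired analysis was possible because the report describes 1 group and makes no test. Some trace genes rest on few reads, such as ESR1 on 9, 5 and 9 reads, genes without a row have no level, and RNA does not give protein.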

Other observations

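Cancer-testis antigens, genes that are normally read in germ cells and often switched on in tumours, were looked at after their values had been seen. Of 32 such genes 15 had a row and 10 reached 10 FPKM. The 10 were 66.7% of those with a row, beside 40.1% of all protein-coding genes. MAGEA4 was at 136, 142 and 144 FPKM (rank 372) and CTAG2 at 137, 127 and 112 FPKM, both in the high class. MAGEA1 had 53.9 ± 1.85 FPKM, SSX2 45.5 ± 0.175 FPKM and PRAME 9.4 ± 0.368 FPKM. Means of CTAG1B and CTAG1A, 93.5 and 81.4 FPKM, and of MAGEA6 and MAGEA3, 63.7 and 51.7 FPKM, are uncertain, since the members of each pair are near-identical and share reads.

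Of 32 genes of secreted peptides and their receptors, a list also chosen after the values were seen, 20 had a row and 6 reached 10 FPKM. The 6 were 30% of those with a row, under the 40.1% of all protein-coding genes. The growth factor MDK was at 603, 545 and 518 FPKM (rank 98). APLN, the vascular peptide apelin, was at 331, 324 and 313 FPKM, and its receptor APLNR had no row. VGF, a neuropeptide precursor, was at 196, 199 and 169 FPKM. RAMP1, a subunit of the receptor for calcitonin gene-related peptide, was at 176, 159.7 and 145 FPKM, while its partner CALCRL was trace at 0.059 ± 0.00475 FPKM and CALCR had no row.

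The alpha globin genes HBA2 and HBA1 were at 47, 42.2 and 38.8 FPKM and 41.7, 37.6 and 36.2 FPKM. HBQ1 and HBE1 had means of 9.79 and 3.48 FPKM. HBB, the erythroid enzyme ALAS2 and the erythroid factors KLF1 and GATA1 had no row, and the general enzyme ALAS1 had 28.8 ± 0.391 FPKM.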
